A study of Mus musculus with 24 samples.

Results

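The mitochondrial ribosomal protein genes are the nuclear genes whose symbols begin with Mrpl or Mrps followed by a digit. They were chosen by symbol alone, from the non-control probes of a mouse expression array, and 77 genes of 27248 gene symbols met the rule, read by 119 probes. Liver RNA had been hybridised to 1-colour Agilent arrays labelled with Cy3. All mice were male C57Bl/6J animals aged 8 weeks and were killed at ZT16, a zeitgeber time (hours counted from lights on). The groups were Ppara liver knockout mice fasted for 24 h (fasted LKO, 6 animals), Ppara liver knockout mice with free access to food (fed LKO, 6), liver wild-type mice fasted for 24 h (fasted WT, 5) and liver wild-type mice with free access to food (fed WT, 5). The labels number 22 animals on 24 arrays, with 1 fasted WT and 1 fed WT animal each hybridised 2 times, whereas the series text states 24 individual mice. The animal numbers were followed and repeat arrays averaged. The sources used here do not give the Cre driver of the deletion or the deleted exons.

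Mitochondria carry their own ribosome, which translates the few messenger RNAs encoded by mitochondrial DNA, all of them for subunits of the respiratory chain and ATP synthase. Its RNAs come from mitochondrial DNA, but every one of its proteins is encoded in the nucleus, made in the cytosol and imported. Some of these proteins descend from bacterial ribosomal proteins, and others exist only in mitochondria. PPARα, the product of Ppara, is a nuclear receptor that switches on fatty acid oxidation genes in the fasting liver, an organ that then depends on mitochondrial oxidation for ketone body and glucose production.

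Of the 77 members, 50 encode large-subunit proteins (29 with a bacterial counterpart and 21 specific to mitochondria) and 26 encode small-subunit proteins (16 with a bacterial counterpart and 10 specific to mitochondria). The remaining one, Mrps36, carries a ribosomal name, but its product is now known as an adaptor subunit of the 2-oxoglutarate dehydrogenase complex. All 77 were well above background in all 22 animals, so none was lost to the filter on dim probes. Of their probes, 112 passed that filter, and 28 members had several such probes. Each gene is given by its brightest passing probe.

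Levels below are log2 processed signals minus the array's 75th percentile, which lay between 444.1 and 614.2 intensity units on single arrays, and changes are log2 differences from a limma fit to all 22 animals. A gene was called when its p, adjusted by Benjamini-Hochberg over 17215 genes, was below 0.05. Probes well above background made up 52.2% to 60.6% of all probes. One animal differed from its group: along the third principal component, fed LKO replicate 3 scored 57.2, and the remaining fed LKO animals scored -17.0 to -4.6. Counts are therefore also given without this animal. Ppara, at the first of its probes on chromosome 15, was at 5.07 ± 0.11 (SD, n = 6) in fasted LKO and 5.93 ± 0.13 (n = 5) in fasted WT mice, and at 4.63 ± 0.37 (n = 6) in fed LKO and 5.29 ± 0.20 (n = 5) in fed WT mice. A probe outside the deleted part would not check the deletion. All hepatocyte markers tested, 11 of the 12 listed, were well above background in some or all animals of every group. None of these markers was called between the genotypes in fasted or in fed mice. In whole liver, fewer cells of a type and less RNA per cell cannot be told apart.

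The members' mean level was lowest in the fasted LKO mice. After each gene was centred on its mean over the 22 animals, the mean over the 77 members lay between -0.17 and -0.11 in fasted LKO, with a median of -0.16. It lay between -0.05 and 0.10 in fed LKO, with a median of 0.08. The fasted WT animals had -0.01, 0.02, 0.04, 0.09 and 0.11, and the fed WT animals 0.03, 0.06, 0.07, 0.07 and 0.10. Fasted LKO mice did not overlap any other group, and the other groups overlapped each other. The lowest fed LKO value, -0.05, was that of replicate 3. The spread within groups was small beside this step: the SD was 0.02 in fasted LKO, 0.05 in fed LKO, 0.05 in fasted WT and 0.03 in fed WT.

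**Figure D1:**
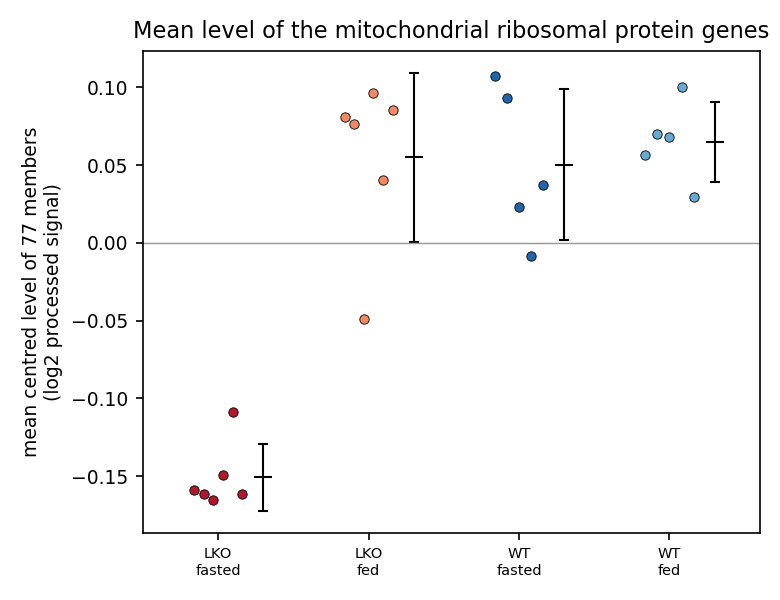
Mean centred level of the 77 mitochondrial ribosomal protein genes in each animal (points, log2 processed signal) with the group mean and SD (black), for fasted LKO, fed LKO, fasted WT and fed WT mice. The 6 fasted LKO mice lie between -0.17 and -0.11, below every animal of the other groups.

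The genes differ in their start regions, and RefSeq promoter windows (GRCm38.p6, 250 bases before to 50 after the start) were matched for 68 members. The windows shown here belong to members that recur below. Mrpl17 had the largest rise in fasted WT mice, Mrpl35 and Mrpl49 were among the largest falls in fasted LKO mice, and Mrps11 shares its start region with a second member, Mrpl46. Capitals mark the searched motifs on either strand: CCGGAAG, the core of ETS and GABP sites, in Mrpl17, AAGATGGCG, a YY1 motif, in Mrpl35 and in Mrps11, and TGACGTCA, the cyclic AMP response element, in Mrpl49.
Mrpl17 (chr7:105811038-105811337, minus strand): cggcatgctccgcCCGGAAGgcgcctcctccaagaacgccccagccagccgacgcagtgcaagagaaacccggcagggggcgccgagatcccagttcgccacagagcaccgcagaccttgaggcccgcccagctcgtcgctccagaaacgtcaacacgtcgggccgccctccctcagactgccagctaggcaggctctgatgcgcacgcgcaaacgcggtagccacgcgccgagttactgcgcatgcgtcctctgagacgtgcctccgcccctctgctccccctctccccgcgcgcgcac
Mrpl35 (chr6:71823735-71824034, minus strand): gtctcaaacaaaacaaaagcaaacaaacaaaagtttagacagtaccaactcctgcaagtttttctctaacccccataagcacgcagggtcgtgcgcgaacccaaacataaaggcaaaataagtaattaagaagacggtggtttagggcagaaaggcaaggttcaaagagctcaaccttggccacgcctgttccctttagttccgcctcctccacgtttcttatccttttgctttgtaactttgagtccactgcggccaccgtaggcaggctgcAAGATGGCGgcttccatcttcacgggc
Mrpl49 (chr19:6057706-6058005, minus strand): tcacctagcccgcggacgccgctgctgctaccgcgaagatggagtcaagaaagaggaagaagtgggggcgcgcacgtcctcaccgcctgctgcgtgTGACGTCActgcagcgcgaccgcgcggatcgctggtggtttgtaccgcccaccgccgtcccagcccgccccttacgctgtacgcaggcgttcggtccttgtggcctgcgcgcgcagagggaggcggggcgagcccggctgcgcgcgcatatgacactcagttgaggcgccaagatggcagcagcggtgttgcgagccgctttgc
Mrps11 (chr7:78782881-78783180, plus strand): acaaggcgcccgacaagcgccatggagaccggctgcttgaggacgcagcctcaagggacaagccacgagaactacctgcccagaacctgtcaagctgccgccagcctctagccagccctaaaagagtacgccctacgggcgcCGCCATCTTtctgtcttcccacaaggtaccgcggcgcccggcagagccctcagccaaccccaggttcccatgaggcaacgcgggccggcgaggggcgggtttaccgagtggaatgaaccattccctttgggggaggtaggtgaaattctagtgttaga

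Fasting moved members both ways in WT livers. Of the 77, 14 rose, 20 fell and 43 were not called, with a median change of -0.02. Over all genes tested, 44.4% were called, 22.8% higher and 21.7% lower, with a median of 0.00, so the members' share of calls (44.2%) was close to the background. Fasted and fed WT animals did not overlap for 11 members that were higher and 15 that were lower, where 17.5% and 17.0% of all genes were. The count of members higher was 9 without fasted WT replicate 2 or without fed WT replicate 1. It was 16, with 23 lower, when fed LKO replicate 3 was dropped from the common variance estimate.

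Mrpl17, a large-subunit protein with a bacterial counterpart that lies near the peptide exit tunnel, rose most. Its probe lies at chr7:112958345-112958404 (mm9). It was at 3.92, 3.96, 3.86, 3.75 and 3.93 in fasted WT mice, against 3.16, 3.15, 3.06, 3.25 and 2.97 in fed WT mice. Every fasted animal was above every fed one, and the rise was 1.70-fold (log2 0.77, SE 0.06, limma adjusted p = 3.64e-09). Mrpl15, another large-subunit protein with a bacterial counterpart (chr1:4766862-4767644), was at 4.33, 4.41, 4.11, 3.95 and 4.13 in fasted WT mice, against 3.78, 3.73, 3.91, 3.58 and 3.69 in fed WT mice, again without overlap. It rose 1.36-fold (log2 0.44, SE 0.08, limma adjusted p = 0.00019), and its other probe gave 0.33. Mrps9, a small-subunit protein with a bacterial counterpart (chr1:42956365-42960169), was at 1.62, 1.63, 1.64, 1.59 and 1.53 in fasted WT mice, against 1.19, 1.13, 1.27, 1.16 and 1.13 in fed WT mice. It rose 1.34-fold (log2 0.43, SE 0.07, limma adjusted p = 3.16e-05), with 0.66 at its dimmer probe. Mrps35, a mitochondria-specific small-subunit protein, rose by 0.29 (SE 0.07).

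Mrps6, a small-subunit protein with a bacterial counterpart (chr16:92112223-92112282), fell most. It was at 2.30, 2.24, 2.23, 2.18 and 1.95 in fasted WT mice, against 2.65, 2.76, 2.62, 2.65 and 2.55 in fed WT mice. The groups did not overlap and the fall was 1.38-fold (log2 -0.47, SE 0.06, limma adjusted p = 5.57e-06). Mrps25, a mitochondria-specific small-subunit protein, fell by 0.32 (SE 0.06), and Mrpl4, a large-subunit protein with a bacterial counterpart, fell by 0.29 (SE 0.05), both without overlap of fasted and fed WT animals. Mrps36 fell by 0.30 (SE 0.11, limma adjusted p = 0.0287) with overlap, and its call was lost when any of 5 animals was left out: fasted WT replicate 2 (limma adjusted p = 0.0595), 3 (0.0727) or 4 (0.0631) and fed WT replicate 2 (0.0721) or 4 (0.0677). Over all alternatives its limma adjusted p was 0.00578 to 0.0727.

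In LKO livers the same fast lowered most members. Of the 77, 51 fell, 8 rose and 18 were not called, with a median change of -0.22. Over all genes tested 49.7% were called, 26.7% lower and 23.0% higher, with a median of -0.04, against which 66.2% of the members fell. Fasted and fed LKO animals did not overlap for 35 members that were lower and 3 that were higher, where 14.1% and 13.2% of all genes were. Without fed LKO replicate 3, 52 members fell and 6 rose, with a median of -0.23. With fasting, 5 of 12 endothelial and 6 of 10 stellate cell markers fell in LKO and 1 of each rose, while in WT 7 endothelial markers rose and none fell, and 4 stellate cell markers fell and 3 rose. Their part in these changes was not tested. The count of members higher was 5 without fasted LKO replicate 5, fed LKO replicate 5 or fed LKO replicate 6.

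Mrps36 fell most (probe at chr13:101506215-101509014, mm9). Its level ranged from 2.21 to 2.89, with a median of 2.76, in fasted LKO mice, against 3.29 to 3.74, with a median of 3.49, in fed LKO mice. All fasted LKO animals were below all fed ones, and replicate 1 was the lowest. The fall was 1.77-fold (log2 -0.82, SE 0.10, limma adjusted p = 9.07e-07). Mrps25 (chr6:92124834-92124893) ranged from 2.41 to 2.80, with a median of 2.60, in fasted LKO mice, against 3.28 to 3.44, with a median of 3.36, in fed LKO mice. It fell 1.71-fold without overlap (log2 -0.78, SE 0.06, limma adjusted p = 1.13e-09). Mrpl49, a mitochondria-specific large-subunit protein (chr19:6054680-6054739), ranged from 0.95 to 1.14, with a median of 1.04, in fasted LKO mice, against 1.47 to 1.76, with a median of 1.64, in fed LKO mice. It fell by 0.58 on the log2 scale without overlap (SE 0.06, limma adjusted p = 5.87e-08). Mrpl35, a large-subunit protein with a bacterial counterpart (chr6:71763258-71763317), ranged from -3.91 to -3.28, with a median of -3.71, in fasted LKO mice, against -3.29 to -2.93, with a median of -2.95, in fed LKO mice. Its probe is dim, the groups touched at a single fed animal, replicate 1, and the fall was 1.57-fold (log2 -0.65, SE 0.11, limma adjusted p = 5.54e-05).

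The members that rose in fasted LKO mice rose little. Mrps9 ranged from 1.26 to 1.55, with a median of 1.45, in fasted LKO mice, against 0.89 to 1.26, with a median of 1.05, in fed LKO mice, and rose 1.30-fold with the groups meeting at 1.26 (log2 0.38, SE 0.06, limma adjusted p = 2.98e-05). Mrpl17 ranged from 3.24 to 3.44, with a median of 3.27, in fasted LKO mice, against 2.90 to 3.10, with a median of 2.97, in fed LKO mice. It rose 1.24-fold without overlap (log2 0.31, SE 0.05, limma adjusted p = 5.22e-05). Mrpl54, a mitochondria-specific large-subunit protein (chr10:80727584-80727643), ranged from 3.77 to 4.12, with a median of 3.88, in fasted LKO mice, against 3.55 to 3.70, with a median of 3.56, in fed LKO mice. It rose 1.24-fold without overlap (log2 0.31, SE 0.05, limma adjusted p = 8.95e-05). Mrps18b, a small-subunit protein here classed as specific to mitochondria, rose by 0.20 (SE 0.07, limma adjusted p = 0.0267). Its call was lost without fasted LKO replicate 5 (0.13, adjusted p = 0.0717), the highest animal, with 0.00126 to 0.0717 over all alternatives.

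Setting the genotypes side by side, 20 members fell with fasting in both LKO and WT mice, 6 rose in both, and 29 fell in LKO but were not called in WT. Opposite calls were seen for 2 members, Mrpl11 and Mrpl45, which fell in LKO and rose in WT, and 6 were not called in LKO and rose in WT. A further 2 rose in LKO and were not called in WT, and 12 were called in neither. The share of all genes with each of these patterns was not counted, so the patterns describe the members alone. Over all genes tested, 49.7% were called with fasting in LKO and 44.4% in WT. Those counts of patterns do not test a difference between the genotypes, which the interaction term does.

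The interaction, the fasting change in LKO minus that in WT, was called for 27 members, all of them negative, with a median of -0.19 over the 77. Over all genes tested 18.3% were called, 10.6% negative and 7.71% positive, with a median of -0.03, against which 35.1% of the members were negative. Of the 27, 17 fell in LKO and were not called in WT, 6 fell in both, 2 fell in LKO and rose in WT, 1 (Mrpl17) rose in both and 1 (Mrpl15) was not called in LKO and rose in WT. Without fed LKO replicate 3 the count was 36, and it included all 27. Of the 12 endothelial markers, 8 were called negative in the interaction and 0 positive, with a median of -0.56, and their part in the members' result was not tested.

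By brightest probe, Mrpl15 had the largest such difference. A dimmer Mrpl38 probe gave -1.18 (SE 0.24, limma adjusted p = 0.00255 over all passing probes). The brightest probe of Mrpl38 gave -0.23 and was not called. The level of Mrpl15 ranged from 3.67 to 4.04, with a median of 3.79, in fasted LKO mice, against 3.79 to 3.95, with a median of 3.93, in fed LKO mice. These groups overlapped and the change in LKO was -0.09 (SE 0.08), beside the rise of 0.44 in WT. The difference was -0.53 (SE 0.11, limma adjusted p = 0.00252), and the second probe gave -0.46. For Mrps36 it was -0.52 (SE 0.15, limma adjusted p = 0.0187), for Mrps25 -0.46 (SE 0.08, adjusted p = 0.000719) and for Mrpl17, which rose in both genotypes, -0.45 (SE 0.08, adjusted p = 0.000479). Mrpl45, a mitochondria-specific large-subunit protein that lies at the peptide exit on the membrane side (chr11:97190353-97190412), was called lower with fasting in LKO and higher in WT. It ranged from 1.69 to 1.91, with a median of 1.82, in fasted LKO mice, against 1.94 to 2.28, with a median of 2.14, in fed LKO mice. In WT mice it was at 2.41, 2.43, 2.41, 2.29 and 2.31 when fasted, against 2.24, 2.13, 2.23, 2.27 and 2.20 when fed. The change was -0.32 (SE 0.06) in LKO and 0.15 (SE 0.06, limma adjusted p = 0.0457) in WT, and the difference was -0.48 (SE 0.08, limma adjusted p = 0.000479). The call of the WT rise was lost in 18 of 30 alternatives, 5 of them other ways of processing. It was lost in turn without fasted WT replicate 1, 2 or 3 (limma adjusted p = 0.0896, 0.0978 and 0.0896) and without fed WT replicate 1, 2, 3 or 5 (0.057, 0.11, 0.0651 and 0.076). It was also lost, at 0.0504 to 0.0523, without fasted LKO replicate 2, 4, 5 or 6 or fed LKO replicate 4 or 5, which bear on the spread alone, and ranged from 0.0227 to 0.11 over all alternatives. For Mrps6, which fell in both genotypes, the difference was 0.07 (SE 0.09), and for Mrps9, which rose in both, it was -0.04 (SE 0.09), neither of them called.

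**Figure D2:**
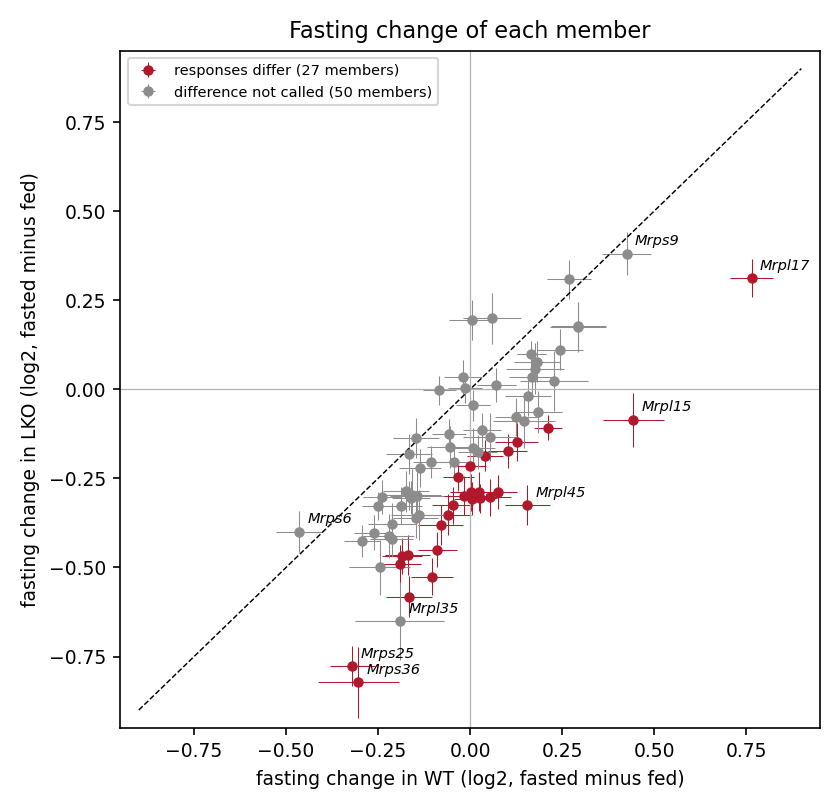
Fasting change of each of the 77 members in LKO mice (vertical axis) against that in WT mice (horizontal axis), as log2 differences of fasted minus fed with SE bars. The dashed line marks equal change, and the 27 members with a called difference (red) all lie below it.

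**Figure D3:**
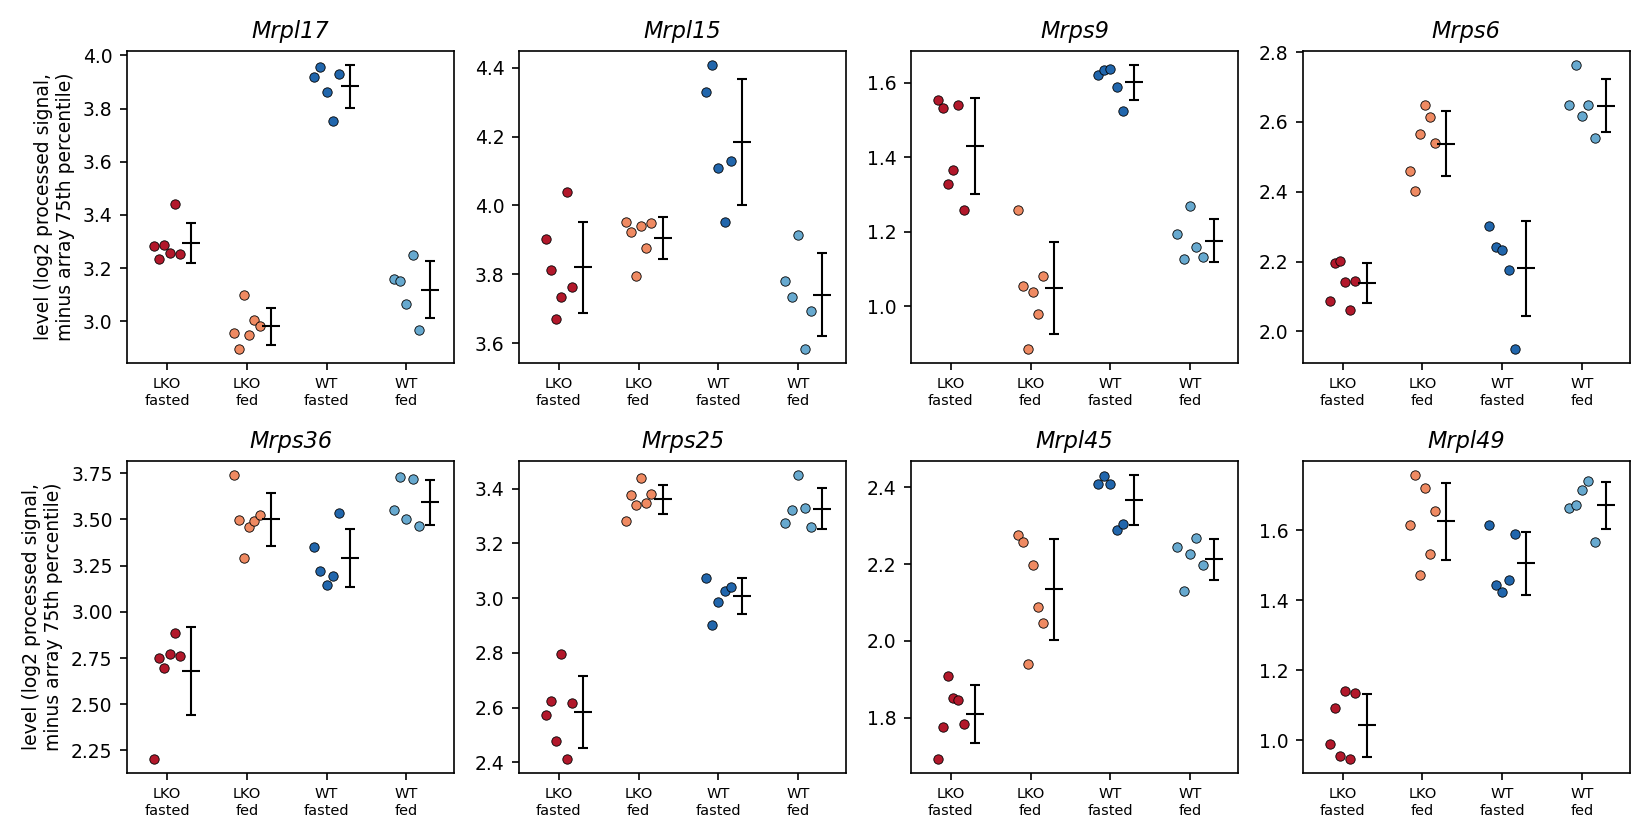
Level of 8 members in each animal (points, log2 processed signal minus the array's 75th percentile) with the group mean and SD (black), by group. Fasted LKO mice are lowest for Mrps36, Mrps25, Mrpl45 and Mrpl49, the fasted WT mean is highest for Mrpl17 and Mrpl15, and both fasted groups lie together for Mrps6.

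Among fasted mice, most members were lower in LKO than in WT. Of the 77, 49 were lower, 1 was higher and 27 were not called, with a median of -0.19. Over all genes tested 38.0% were called, 19.9% lower and 18.1% higher, with a median of -0.01, against which 63.6% of the members were lower. Fasted LKO and fasted WT animals did not overlap for 34 members, all lower in LKO, where 13.5% of all genes were lower without overlap. Without fed LKO replicate 3, 52 members were lower and 2 higher. When each animal was left out in turn, the count lower ranged from 39 to 52. Within slides 1, 2 and 3, each of which held arrays of all 4 groups, the members' median was -0.21, -0.17 and -0.20. Endothelial markers moved with these groups: of 12, 11 were lower in fasted LKO than in fasted WT mice. Each of the 12 was well above background in some or all animals of every group. Their summed level, on the linear scale relative to the 75th percentile, was 49.8 to 60.4 in fasted LKO against 65.0 to 92.8 in fasted WT mice, and 54.0 to 76.9 in fed LKO against 58.6 to 72.3 in fed WT mice. The part of these cells in the result was not tested.

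Mrps36 and Mrpl17 differed most. Mrps36 ranged from 2.21 to 2.89 in fasted LKO mice, against 3.35, 3.22, 3.15, 3.20 and 3.54 in fasted WT mice, and was 1.53-fold lower (log2 -0.61, SE 0.10, limma adjusted p = 0.000107). Mrpl17 was 1.51-fold lower in fasted LKO than in fasted WT mice (log2 -0.59, SE 0.06, limma adjusted p = 6.61e-08). Mrpl45 was 1.47-fold lower (log2 -0.56, SE 0.06, limma adjusted p = 3.21e-07). For these 3 genes the fasted LKO and fasted WT animals did not overlap. Mrpl35 ranged from -3.91 to -3.28 in fasted LKO mice, against -3.13, -3.12, -2.81, -3.32 and -3.21 in fasted WT mice, and was 1.46-fold lower with some overlap (log2 -0.54, SE 0.12, limma adjusted p = 0.000934).

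The single member higher in fasted LKO was Mrpl54, which ranged from 3.77 to 4.12 in fasted LKO mice, against 3.75, 3.87, 3.66, 3.66 and 3.70 in fasted WT mice. The groups overlapped (log2 0.17, SE 0.06, limma adjusted p = 0.0259). The call was lost without fasted LKO replicate 5 (0.12, adjusted p = 0.0621) and without fasted WT replicate 3 (0.0706), 4 (0.0661) or 5 (0.054), with 0.00515 to 0.0706 over all alternatives. The count of members higher was 0 without any 1 of these 4 animals, and 2 without fasted LKO replicate 2, fed LKO replicate 3 or fasted WT replicate 2.

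In fed mice no member was called between LKO and WT by limma at its brightest probe, while 3.97% of all genes tested were (1.99% higher and 1.99% lower). Dimmer probes of Mrps22 and Mrpl9 were called lower in fed LKO mice in the limma fit over all passing probes. They differed by -0.23 (SE 0.06, limma adjusted p = 0.0223) and -0.29 (SE 0.08, limma adjusted p = 0.0469). At the brightest probes the 77 differences ran from -0.18 (Mrps11, SE 0.06, limma adjusted p = 0.103) to 0.18 (Mrpl23, adjusted p = 0.0514), with a median of 0.01 against 0.02 over all genes. The slides differed: within slides 1, 2 and 3 the members' median was -0.08, 0.02 and 0.03, with 57, 33 and 30 of the 77 negative. At an unadjusted limma p below 0.05 there were 8 of the 77 members, and 2729 of the 17215 genes tested. Without overlap, 2 members, Mrpl24 and Mrpl54, were higher in fed LKO, where 1.75% of all genes were. In the other direction 0 members were lower without overlap, where 1.93% of all genes were. A single member was called higher when fed LKO replicate 3 was left out.

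The counts by structural class were as follows. With fasting in LKO, where 26.7% of all genes fell and 23.0% rose, 20 of 29 large-subunit proteins with a bacterial counterpart fell and 4 rose (median -0.29), and 13 of 21 mitochondria-specific large-subunit proteins fell and 1 rose (median -0.18). In the small subunit, 14 of 16 with a bacterial counterpart fell and 1 rose (median -0.30), while 3 of 10 mitochondria-specific proteins fell and 2 rose (median -0.01), shares near those of all genes. In fasted LKO against fasted WT mice, where 19.9% of all genes were lower, the counts lower were 21 of 29, 13 of 21, 10 of 16 and 4 of 10 in the same order of classes, with medians of -0.22, -0.18, -0.20 and -0.15. With fasting in WT, where 22.8% of all genes rose and 21.7% fell, the counts higher were 5 of 29, 3 of 21, 1 of 16 and 5 of 10 in that order. The counts lower were 7, 4, 5 and 3, and the medians were -0.04, -0.02, -0.03 and 0.11. In the last class, the mitochondria-specific small-subunit proteins, Mrps35, Mrps31, Mrps33, Mrps26 and Mrps34 were higher and Mrps25, Mrps22 and Mrps27 lower. No test compared the classes. Within groups, the members' deviations from the group mean had a median pairwise correlation of 0.25 over 2926 pairs across the 22 animals, all on shared arrays. No such value was computed for all genes, so it describes the members alone.

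**Figure D4:**
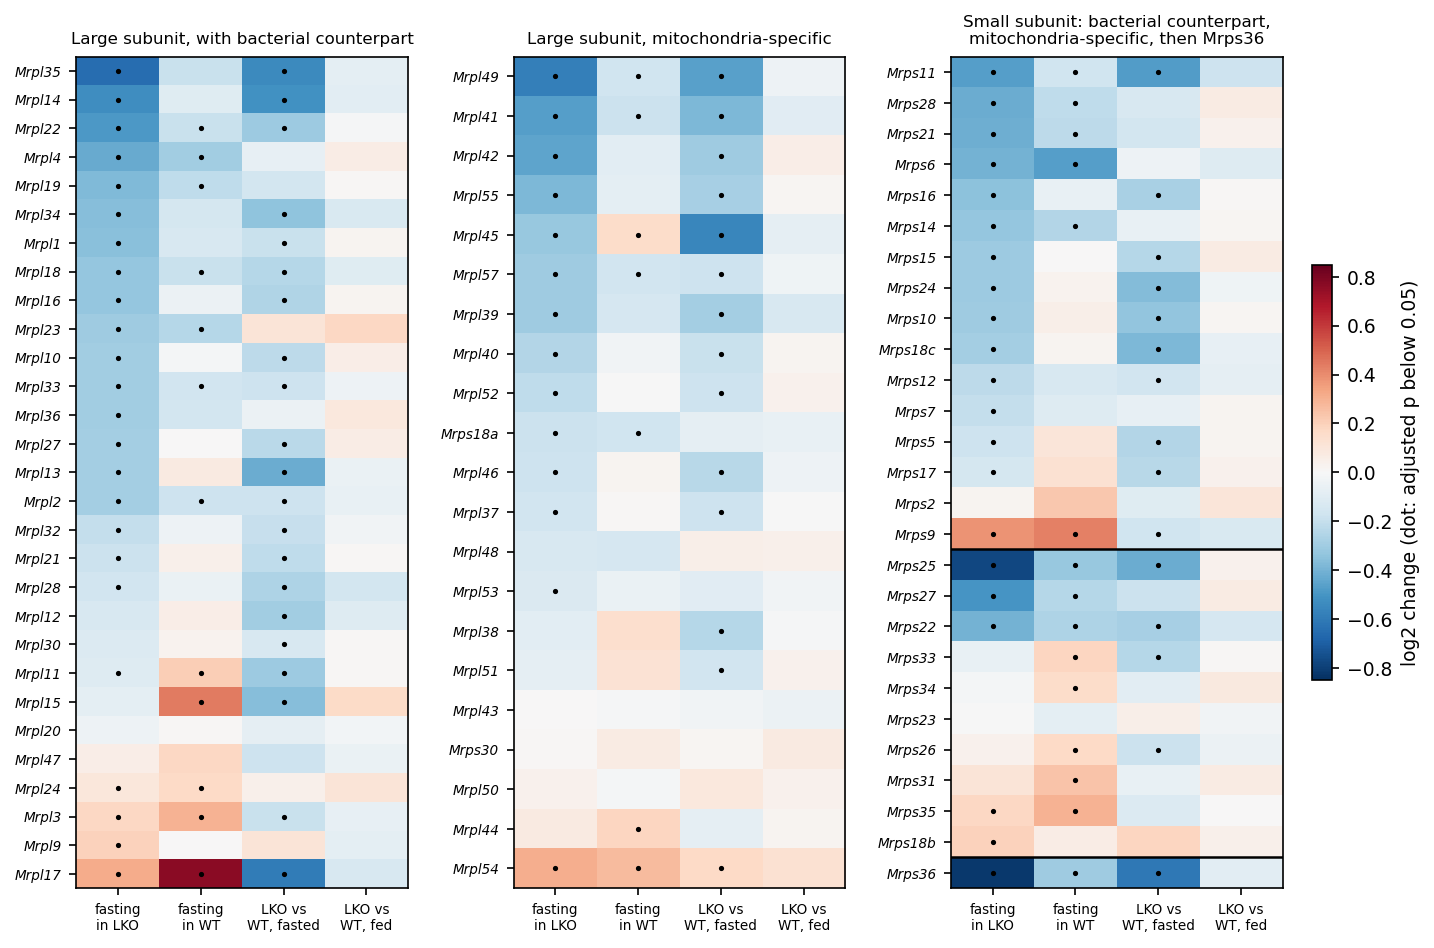
Log2 change of all 77 members (down the page, grouped by structural class) with fasting in LKO, with fasting in WT, in LKO against WT when fasted and in LKO against WT when fed (columns). Dots mark an adjusted p below 0.05, of which there are 59, 34, 50 and 0 in the 4 columns.

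Other genes of mitochondrial translation were read from lists chosen by role, and their counts are to be read against all genes tested: 26.7% fell and 23.0% rose with fasting in LKO, 21.7% fell and 22.8% rose with fasting in WT, and 19.9% were lower and 18.1% higher in fasted LKO than in fasted WT mice. Of 6 measured ribosomal proteins with other names, 5 fell with fasting in LKO and 2 in WT. Gadd45gip1, a large-subunit protein also known as CRIF1, fell by 0.65 (SE 0.05) in LKO, and Ptcd3, a small-subunit protein, differed between fasted LKO and fasted WT mice by -0.34 (SE 0.08, limma adjusted p = 0.0028). Of 12 translation factors, 7 fell and 2 rose with fasting in LKO (median -0.17), against 3 and 4 in WT (median 0.11). Gfm1, the elongation factor that moves the ribosome along, differed by -0.50 between fasted LKO and fasted WT mice, Tufm, which delivers charged tRNA, by -0.45, and Gfm2, which helps to split the ribosome after termination, by -0.43. Of 20 genes that charge mitochondrial tRNAs, 13 fell and 1 rose with fasting in LKO (median -0.25), and 13 were lower and 1 higher in fasted LKO than in fasted WT mice. Lars2, the leucyl-tRNA synthetase, differed by -0.58 (SE 0.06, limma adjusted p = 4.43e-07).

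Assembly factors of the mitoribosome had a share of falls with fasting in LKO near the 26.7% of all genes. Of 28, 8 fell and 9 rose with fasting in LKO (median 0.07), against 3 and 12 in WT (median 0.10), and 9 were lower and 3 higher in fasted LKO than in fasted WT mice. Ddx28, an RNA helicase of large-subunit assembly, rose by 0.98 in LKO and by 0.66 in WT. Of 29 genes for the expression of mitochondrial DNA, 10 were lower and 2 higher in fasted LKO than in fasted WT mice (median -0.14). Among them Hsd17b10, a subunit of mitochondrial RNase P that is also a dehydrogenase of fatty acid and isoleucine breakdown, differed by -1.55 and Tefm, the transcription elongation factor, by -0.59. None of 11 regulators of mitochondrial genes fell with fasting, while 7 rose in LKO and 5 in WT. Ppargc1a, the coactivator PGC-1α, rose by 1.23 in LKO and by 1.74 in WT, and the difference of these rises was not called. Of the 11 regulators, 3 were higher and 1 lower in fasted LKO than in fasted WT mice. Nrf1, nuclear respiratory factor 1, was higher by 0.41 (SE 0.06, limma adjusted p = 7.04e-06).

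Nuclear genes of the respiratory chain and ATP synthase, whose products assemble with the proteins that this ribosome makes, were also mostly lower in fasted LKO mice. Of 74 tested, 50 fell and 0 rose with fasting in LKO (median -0.21), against 3 and 12 in WT (median 0.05), and 56 were lower and 0 higher in fasted LKO than in fasted WT mice (median -0.24). Of 81 cytosolic ribosomal protein genes, 18 fell and 11 rose with fasting in LKO (median -0.02), against 33 and 3 in WT (median -0.09). Between fasted LKO and fasted WT mice 32 of these were higher and 2 lower (median 0.09). The comparisons of a list share animals, and no test compared the lists.

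**Figure D5:**
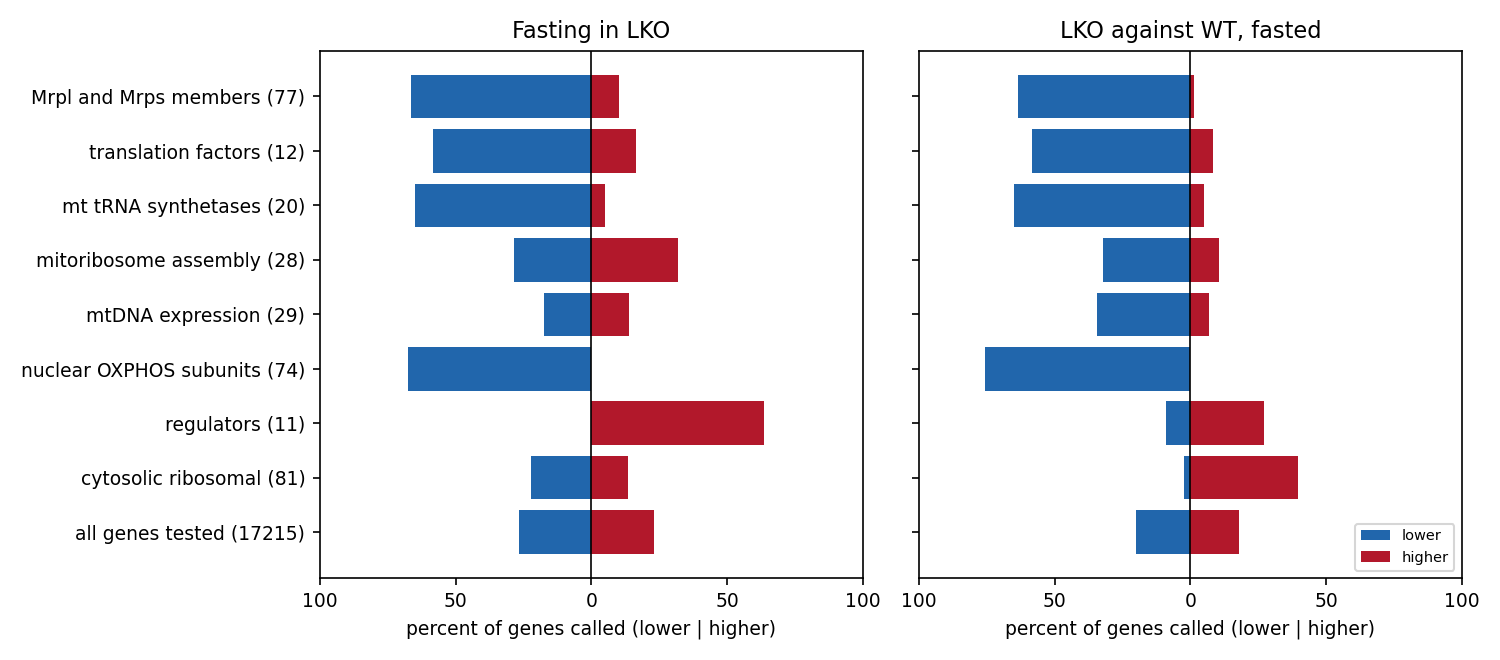
Percent of each list called lower (blue, to the left) or higher (red, to the right) with fasting in LKO and in fasted LKO against fasted WT mice, with the number of genes tested in brackets. The members, the tRNA synthetases and the nuclear OXPHOS subunits lie mostly to the left, and the cytosolic ribosomal protein genes lie to the right in fasted LKO against fasted WT mice.

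Probes of a gene mostly moved the same way. Of 35 further passing probes, 29 had the sign of the probe used with fasting in LKO and 29 in fasted LKO against fasted WT mice. With fasting in WT 28 of the 35 had it, but in fed LKO against fed WT mice only 21. In 2 genes, probes were called in opposite directions. A Mrpl48 probe well above background in 19 animals rose by 0.56 in LKO and by 0.73 in WT with fasting, while a bright one fell by 0.13 and 0.14. A Mrpl27 probe well above background in 8 animals was higher in fasted LKO than in fasted WT mice by 1.33, while the 3 bright probes of that gene differed by -0.36 to -0.18.

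The start regions held certain motifs often. CCGGAAG was found in the windows of 25 of 68 members (36.8%), against 9.93% of all 27025 genes with a window, and AAGATGGCG in 8 (11.8%) against 1.64%. The palindromic motif of nuclear respiratory factor 1 was found in 3 (4.41%) against 1.07%, the E-box CACGTG in 5 (7.35%) against 8.09% and TGACGTCA in 2 (2.94%) against 2.03%. Neither TNAAGGTCA, bound by oestrogen-related receptors, nor the direct repeat with a single-base spacer, bound by PPARα, was found in these windows, with 1.43% and 0.0481% of all genes holding them. Both strands were searched, and CCGGAAG and AAGATGGCG can overlap through a shared AAG. Counted by window rather than by gene, the first and second motif stood in 33.8% and 10.8% of the members' 74 windows. Over protein-coding windows alone the shares were 11.6% and 1.83%. Median GC content was 58.5% in the members' windows, against 56.3% in protein-coding and 52.7% in all windows. CCGGAAG stood in 7 of the 25 matched members with a called negative interaction (28%) and in 18 of the 43 others (41.9%).

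Many members start back to back with another gene. For 23 of 68 (33.8%) the window overlapped that of a gene on the opposite strand that starts upstream and runs away from it, against 10.9% of all genes and 11.7% of protein-coding ones, with 8 to 332 bases between the start sites. In 1 pair both genes were members: the starts of Mrpl46 and Mrps11 lie 42 bases apart, and both were lower in fasted LKO than in fasted WT mice, with differences of -0.24 (SE 0.05) and -0.47 (SE 0.06). These 2 and the pairs that follow were picked after their values were seen. Of the other 21 partners 17 were tested, and in fasted LKO against fasted WT mice 6 were lower, 3 were higher and 8 were not called, where 19.9% of all genes were lower and 18.1% higher. Mrpl14, a large-subunit protein at the interface of the subunits, differed by -0.52 and its partner Tmem63b by -0.60. Mrps18c, a small-subunit relative of bacterial S18, differed by -0.38 while its partner Helq, a DNA helicase gene, differed by 0.32.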

How the data were processed

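The 24 arrays come from 22 animals. Values read from the scanner files are processed fluorescence intensity, background-subtracted and detrended per the file headers, with no normalization between arrays. A second source, used as an alternative, was the deposited matrix of log2 values, for which the submitters' processing notes name limma. The submitters' processing notes name Agilent Feature Extraction 10.10.1.1 as scanner software. Here control spots and outlier-flagged spots were left out, repeat spots and repeat arrays averaged, and each array's 75th percentile subtracted from its log2 processed signals. Probes well above background in at least 5 of 22 animals were kept (28138 probes with a symbol, 17215 genes). A model with 1 mean per group was fitted with limma 3.58.1 in R 4.3.3. Such a fit was afterwards also run on data simulated from the gene means and spreads of these levels. Probe positions are in mm9, as in the array files, and gene symbols are the ones printed in those files. Promoters came from RefSeq tables of GRCm38.p6, which are not complete.

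The series text states that samples come from individual mice, and their number limits the precision. Named members are, per comparison, the 4 called ones with the largest rise and the 4 with the largest fall, members whose probes were called in opposite directions, and, of the other pathway lists, up to 3 called genes with the largest change, of which 1 is not reported here. The members and lists were chosen with earlier results of these data known. Alternatives covered scaling, background correction, the deposited table, the filter, probe choice, slide, replicate number, repeat arrays and each animal left out.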

Additional observations from a re-analysis of the deposited data

Results flagged for a closer look

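The fasting responses of LKO and WT mice differed, by the interaction term of the limma fit, for 27 members. For all of them the difference, LKO minus WT, was negative. These were 35.1% of the members, where 10.6% of all genes tested were called negative and 7.71% positive. Endothelial markers moved with the same term (8 of 12 negative, 0 positive, median -0.56), and their part was not tested. Among the named members these differences were -0.53 for Mrpl15, -0.52 for Mrps36, -0.48 for Mrpl45, -0.46 for Mrps25, -0.45 for Mrpl17 and -0.42 for Mrpl49.

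Single animals lay far from the rest of their group in 6 of 56 checks of 13 members and the members' mean level in the 4 groups, where chance gives about 1 in 20. Fasted LKO replicate 5 was high for Mrpl17 (3.44), for Mrps18b (5.73) and for the mean level of the members (-0.11). Fasted LKO replicate 1 was low for Mrps36 (2.21), fed LKO replicate 1 was low for Mrpl35 (-3.29), and fed LKO replicate 3 was high for Mrpl54 (3.70).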

How the results depend on the processing

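In all, 30 alternatives were run, 22 of which left out 1 animal each. The 13 named members gave 1140 such values for the changes called, of which 1083 kept their direction and call, 57 kept the direction without the call and 0 reversed. Counts of all genes called stayed within 1.5 times. Members higher ranged from 9 to 16 with fasting in WT, from 5 to 8 with fasting in LKO, from 0 to 1 in fed LKO against fed WT and from 0 to 2 in fasted LKO against fasted WT mice when each animal was left out in turn. Members lower then ranged from 14 to 23, from 49 to 53, stayed at 0 and ranged from 39 to 52, in the same order. Of the 50 members called in fasted LKO against fasted WT mice, 40 kept their call with quantile normalization and 41 in the deposited table. In fed mice 1 member was called higher with quantile normalization, normexp, the deposited table, slide as a block or the first of repeat arrays, and 1 lower with probes averaged. In fasted mice 4 members were higher in LKO with quantile normalization, 3 with normexp, 3 in the deposited table and 0 without the filter, which also left 4 higher with fasting in LKO. The median change was -0.18 with fasting in LKO under normexp, and that of the interaction -0.13 under quantile normalization and -0.13 in the deposited table, where 19 of the 27 interaction calls were kept. With probes averaged, Mrpl27 and Mrps15 turned to 0.14 (adjusted p = 0.378) and 0.12 (0.459) in fasted LKO against fasted WT mice, and the called interaction of Mrpl27 turned to 0.13 (0.641), since each then includes a dim probe. The cause of the other shifts was not tested. Animals with the same replicate number did not deviate together (correlations of -0.18 to 0.18 over 31 pairs, and 4 of 22 animals correlated best with their own number), and with replicate number as a block the interaction was called for 26 members and 45 members were lower in fasted LKO than in fasted WT mice. Signal over background did not limit the members, but Mrpl35 is read near the dim end.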
